A study of Bos taurus with 6 samples.

Results

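Cattle miRNAs named bta-miR-2286 to bta-miR-2487 are described here, with any letter or arm in the name. The deposited table lists 141 of them among 765 miRNAs. Number alone decided which were taken, and the range was chosen with earlier results of these data known. They were measured in primary myoblasts of fetal beef longissimus dorsi muscle after 4 days in differentiation medium, in 3 cultures with 20 μM resveratrol (RSV group) and 3 cultures with the solvent DMSO alone (control group). No genetic change was made, and both groups received DMSO. The study's methods call the cultures of a group independent experiments, and how many fetuses they came from is not given in the sources used here.

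A miRNA is a short RNA that is trimmed from a hairpin precursor. One strand of the hairpin, the 5p or the 3p arm, is loaded on an Argonaute protein and pairs through its seed with messenger RNAs, which are then translated less or degraded. Most miRNAs with these numbers entered the miRNA catalogue from small RNA sequencing of cattle, have no counterpart named in humans or mice, and have little known function in muscle. bta-miR-2355 is an exception, since a human miRNA carries the same number. No sequence of these miRNAs is printed, because the files used here pair their names with none.

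The table holds 1 mean of normalized reads per group, that is, reads divided by a size factor that scales each library for depth. Every mean of up to 200 normalized reads could be written as a single combination of whole reads in 3 libraries, so the values of single libraries were recovered. This gave reads in all 6 libraries for 583 of the 765 miRNAs and for 139 of the 141 described here. Size factors of RSV libraries were 1.54, 1.29 and 0.935, against 0.922, 0.823 and 0.729 for DMSO libraries, and library values below follow this order. The RSV libraries were therefore the deeper ones, and the recovered libraries carry no replicate number. All miRNA means summed to 6637955 normalized reads in the RSV group and 7340618 in the DMSO group. Reads carried no molecular identifier in the sources used here, so a limit from a count of 0 covers counting error only.

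The libraries held the miRNAs known from myogenic cells, and all 5 on the list were present. bta-miR-206, the most abundant of these, had group means of 127629 normalized reads in RSV and 139464 in DMSO, and bta-miR-1 was at 28912 and 30883. bta-miR-133a, bta-miR-133b and bta-miR-499 had higher means in RSV, with 7817, 5687 and 115 normalized reads against 7453, 5550 and 46.1. Of the 5, bta-miR-499 alone could be tested, and it was higher in RSV (limma voom adjusted p = 0.0251). bta-miR-143 and bta-miR-145, known from smooth muscle and fibroblasts, summed to 380087 and 390970 normalized reads. Markers of other tissues were low beside bta-miR-206 and bta-miR-143, though not all were below bta-miR-499, and some were uneven among libraries. bta-miR-451, known from red cells, had 463 normalized reads in the second deepest RSV library and between 53.4 and 97.4 in the other libraries. The other miRNA of the red cell list, bta-miR-144, had no entry. bta-miR-122, known from liver, had 200 normalized reads in the deepest RSV library and between 17.0 and 87.8 in the others. The leukocyte list of 3 summed to 36.6 normalized reads in RSV and 21.2 in DMSO, the endothelial list of 2 to 305 and 275, and the epithelial list of 5 to 70.7 and 64.5. These sums join markers of opposite direction. Of the leukocyte list, bta-miR-142-5p and bta-miR-142-3p had higher means in RSV, while bta-miR-223 had no reads in RSV and a mean of 4.78 in DMSO. In RSV, bta-miR-142-5p had 4.54, 2.32 and 66.3 normalized reads, so its higher mean rested on the shallowest RSV library. bta-miR-126-5p of the endothelial list and bta-miR-429 of the epithelial list had lower means in RSV, and the others of both lists higher ones. Of the neuronal list of 3, bta-miR-124a alone was listed, at 0.356 and 3.44 normalized reads. The part of these markers in the results below was not tested.

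The miRNAs of the block bta-miR-2286 to bta-miR-2487 were rare in these cells. They made up 0.0440% of all normalized miRNA reads in the RSV group and 0.0387% in the DMSO group, with sums of 2919 and 2838 normalized reads. The median over the 141 was 1.49 normalized reads, as the mean of both groups. In contrast, the median was 310 for the 308 miRNAs numbered 1 to 1000, 12.3 for the 52 entries of bta-miR-2284 and bta-miR-2285, and 12.8 for the 58 with numbers above the block. The 169 entries without a catalogue number, predicted by the authors, had a median of 1.09 normalized reads, the value nearest to that of the cattle block. Of the 141, 59 had a mean under 1, 52 between 1 and 10, 26 between 10 and 100, and 4 of 100 or more. A mean of at least 10 normalized reads was reached by 21.3% of the 141, against 51.1% of all 765 listed miRNAs. Lengths of mature miRNAs are close to each other, so the levels are given per miRNA without a length correction.

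**Figure D1:**
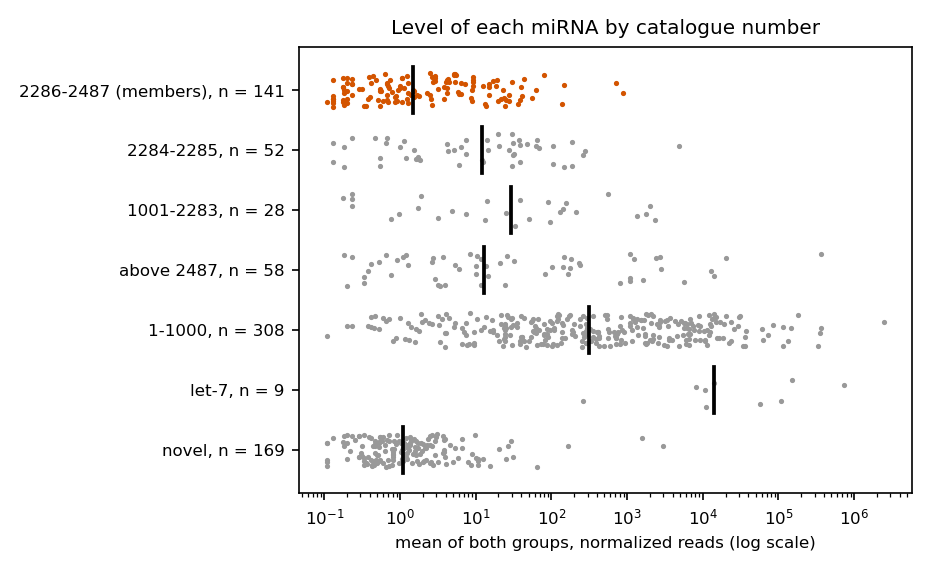
Mean normalized reads of both groups on a log axis for each of the 765 miRNAs (points), by catalogue number, with the median of each set as a black bar. The 141 miRNAs of the block bta-miR-2286 to bta-miR-2487 have a median of 1.49, against 310 for those numbered 1 to 1000 and 1.09 for the predicted entries without a catalogue number.

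Slightly more members were detected in the RSV libraries. All of these were deeper than the DMSO libraries, so depth and treatment cannot be told apart here. Of the 139 with recovered reads, 98, 98 and 96 had a read in single RSV libraries, against 95, 91 and 91 in single DMSO libraries. Reads in all 6 libraries were found for 65 members, the 2 most abundant included by the nearest combination described with them. The summed normalized reads of the 139 were 1261, 1232 and 1325 with RSV, against 1345, 1237 and 1236 with DMSO. The groups overlapped in this sum.

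The block was led by bta-miR-2478 and bta-miR-2387, which together held 55.8% of its normalized reads. bta-miR-2478 had group means of 897 normalized reads in RSV and 874 in DMSO. Its DMSO libraries had 1011, 780 and 833 normalized reads. bta-miR-2387 had group means of 749 in RSV and 691 in DMSO, with 742, 701 and 630 in the DMSO libraries. For the RSV means of both, several combinations of reads were possible, and a single one kept every library within 1.5-fold of the mean. This nearest combination gave 887, 747 and 1057 normalized reads for bta-miR-2478 and 757, 668 and 823 for bta-miR-2387. With it, the log2FC from limma voom was 0.02 (95% interval −0.29 to 0.33) for bta-miR-2478 and 0.10 (−0.12 to 0.33) for bta-miR-2387. With the same combination, both RSV ranges overlapped those of DMSO. The choice of this combination limited the RSV spread in advance, so the intervals and the overlap do not measure that spread.

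The next in abundance were bta-miR-2440 and bta-miR-2336. bta-miR-2336 had 130, 114 and 164 normalized reads in RSV and 143, 130 and 141 in DMSO, with overlapping groups and a log2FC of −0.05 (95% interval −0.37 to 0.27). bta-miR-2484 had 68.1, 65.7 and 65.2 normalized reads in RSV and 54.2, 60.7 and 61.7 in DMSO. Its groups did not overlap, but the difference was small, a log2FC of 0.18 (standard error, SE, 0.12), and did not pass the test. The 10 most abundant members held 76.8% of the reads of the block.

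**Figure D2:**
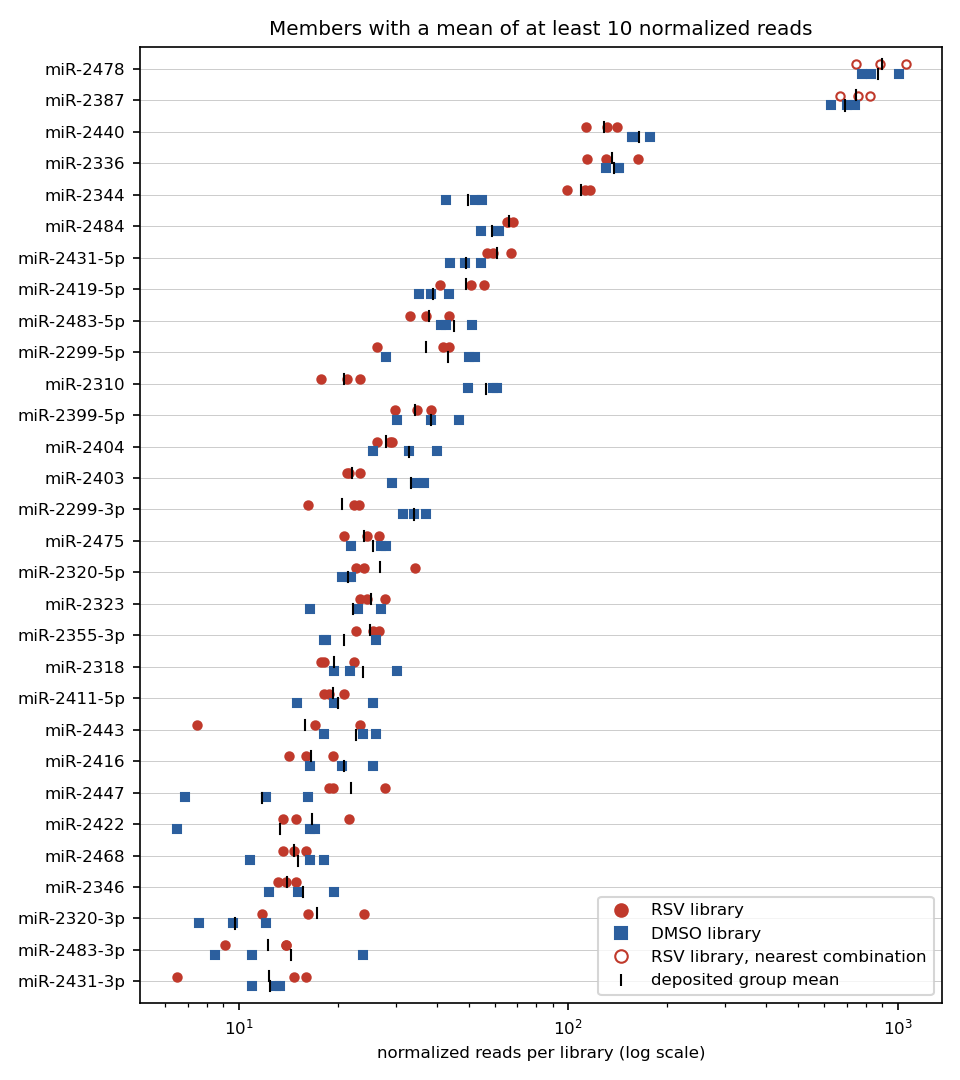
Normalized reads per library on a log axis for the 30 members with a mean of at least 10, RSV libraries as red circles and DMSO libraries as blue squares, with the deposited group means as black bars. Open circles are the nearest combination for bta-miR-2478 and bta-miR-2387. The groups stand widest apart for bta-miR-2344 and bta-miR-2310.

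To ask which of them differed between RSV and DMSO cultures, limma voom was run on the recovered reads. It fits log2 reads with weights for their precision, and its P-values were adjusted by Benjamini-Hochberg. The test ran over 209 miRNAs with recovered reads and a mean of at least 10 normalized reads, 28 of them from this block. Most abundant miRNAs are missing from the 209. Group means above 1000 were not searched, and of 33 RSV means between 400 and 1000, 1 had a single combination. The other 113 of the 141 were not tested, 111 for a low mean and 2 for want of a single combination. An adjusted p of 0.05 was passed by 3 members, which are bta-miR-2344, higher in RSV, and bta-miR-2310 and bta-miR-2299-3p, lower in RSV. That is 10.7% of the 28 tested members, against 9.57% of all 209 tested miRNAs, or 9.18% of 207 with names of identical values counted once. The study counts bta-miR-2344 among its top up-regulated and bta-miR-2310 among its top down-regulated miRNAs of a co-expression module. The block was chosen with this known, so its share of calls is not independent of the choice. The shares of the members and of all tested miRNAs depended on single libraries. Without the DMSO libraries in turn, 2 of the 28 members (7.14%) were called each time, against 2.39%, 3.35% and 1.91% of all 209 (5, 7 and 4 miRNAs), and without the deepest RSV library 2 members against 6.22%. The share called higher was 5.26% of all tested miRNAs and the share called lower 4.31%, that is 11 and 9 miRNAs, against 9 and 12 with quantile normalization.

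The members lay on both sides of no difference, and among those with a mean of at least 10 more were lower in RSV. Over the 30 with a mean of at least 10, the median log2 ratio of the group means, with 1 added to both, was −0.04, against 0.00 over the 391 miRNAs that reached this mean. By this ratio 12 members were higher and 18 lower in RSV, against 202 and 189 of the 391. The median log2FC from limma voom was −0.14 over the 28 tested members, against 0.03 over all 209, and −0.17 against −0.01 with library sizes as sums of the recovered reads. It ranged from −0.16 to −0.03 over the members without single libraries. No test was made of the members as a group. The members were at lower levels, and a mean of 100 or more was reached by 4 of the 30, against 248 of the 391. The part of level in the shares that follow was not tested. With the same 1 added to both means, a difference of 1.5-fold was exceeded by 5 members (16.7%), against 8.70% of the 391. In the higher direction these were bta-miR-2344, bta-miR-2447 and bta-miR-2320-3p, and 5.37% of the 391 passed. In the lower direction they were bta-miR-2310 and bta-miR-2299-3p, and 3.32% of the 391 passed. bta-miR-2403, with group means of 22.1 in RSV and 33.3 in DMSO (ratio 0.664), passed only without the added 1. The recovered libraries of RSV and DMSO did not overlap for 9 of the 28 tested members (32.1%), against 33.0% of all tested miRNAs. Of the 28, 5 lay higher in RSV, against 44 of all 209 (21.1%), and 4 lower, against 25 of all 209 (12.0%). At an unadjusted limma voom p under 0.05 there were 6 of the 28 members, against 58 of all 209 tested miRNAs (27.8%).

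**Figure D3:**
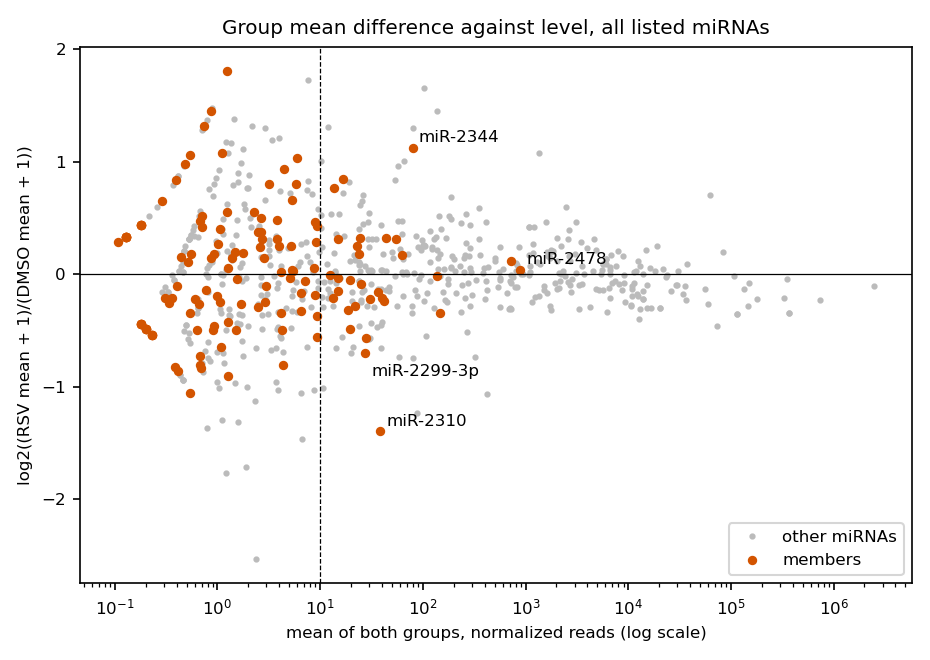
Log2 ratio of the group means, with 1 added to both, against the mean of both groups in normalized reads (log axis), for 765 miRNAs, with members in orange and the minimum mean of 10 as a dashed line. Members spread widely below a mean of 10 and center near 0 above it, and bta-miR-2344 and bta-miR-2310 stand farthest from 0 among members to the right of the line.

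bta-miR-2344 showed the largest increase among the tested members. Its libraries had 112, 117 and 99.4 normalized reads in RSV against 52.1, 54.6 and 42.5 in DMSO. The lowest RSV library lay well above the highest DMSO library. The log2FC was 1.13 (limma voom, SE 0.14, adjusted p = 0.00176), rank 3 by P-value among the 209. Of the 208 other tested miRNAs, bta-miR-181c, novel_227 and bta-miR-6121-3p were most like it across the 6 libraries, with group means of 69.4, 32.9 and 13.9 normalized reads in RSV against 38.5, 19.8 and 6.42 in DMSO. Their log2 normalized reads, each centered on its own mean, differed from those of bta-miR-2344 by 0.22, 0.23 and 0.23 on average. The bta-miR-2344 gene overlaps TBCD, a cofactor of tubulin folding, in RefSeq (assembly ARS-UCD2.0).

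bta-miR-2310 showed the largest decrease. Its libraries had 23.4, 17.8 and 21.4 normalized reads in RSV and 60.7, 49.8 and 59.0 in DMSO, so that no RSV library reached 50% of the lowest DMSO library. The log2FC was −1.43 (limma voom, SE 0.18, adjusted p = 0.00176). bta-miR-1814c has the same mean in both columns and therefore the same reads, and the table does not tell which of both names the reads belong to. RefSeq lists genes of both names, and no miRNA gene lies within 10 kb of the bta-miR-2310 gene, which overlaps no other gene in that table. In the whole block, 41 members share both means with another name, and bta-miR-2310 is the single one of them with a mean of at least 10. The others had lower means, and equal small counts need not mean shared reads. After bta-miR-1814c, the miRNAs most like bta-miR-2310 were bta-miR-210 and bta-miR-502b, with average differences of 0.29 and 0.32. bta-miR-210, a miRNA known to be induced by low oxygen, had group means of 274 normalized reads in RSV and 572 in DMSO and a log2FC of −1.08 (limma voom adjusted p = 0.00935).

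bta-miR-2299-3p had 16.2, 23.2 and 22.5 normalized reads in RSV and 31.5, 34.0 and 37.0 in DMSO. Its groups did not overlap, and its log2FC was −0.77 (limma voom, SE 0.20, adjusted p = 0.0447). This call was near the threshold and was lost, with adjusted p-values of 0.113 to 0.155, without any 1 of the DMSO libraries, and with 0.134 without the deepest RSV library. The 5p arm of the same hairpin had 43.5, 26.3 and 41.7 normalized reads in RSV and 49.9, 27.9 and 52.1 in DMSO, with overlapping groups and a log2FC of −0.21 (95% interval −0.85 to 0.43). This interval includes the log2FC of the 3p arm, and the difference between the arms was not tested. The hairpin overlaps B3GLCT, a glucosyltransferase of the secretory pathway.

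bta-miR-2403 and bta-miR-2440 came next by P-value and did not pass. bta-miR-2403 had 23.4, 21.6 and 21.4 normalized reads in RSV and 29.3, 36.4 and 34.3 in DMSO, without overlap (log2FC −0.57, limma voom adjusted p = 0.0842). bta-miR-2440, whose gene overlaps the ribosomal protein gene RPL3, had 131, 114 and 141 normalized reads in RSV and 177, 157 and 158 in DMSO. Its groups did not overlap either (log2FC −0.36, SE 0.12, limma voom adjusted p = 0.0989), and with quantile normalization it passed (limma voom adjusted p = 0.0362).

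Among members with more reads in RSV, bta-miR-2447 and bta-miR-2320-3p rested on few reads and had wide intervals. bta-miR-2447, within the gene of the DREAM complex subunit LIN54, had 18.8, 19.3 and 27.8 normalized reads in RSV and 16.3, 12.1 and 6.86 in DMSO. Its log2FC was 0.80 (95% interval 0.01 to 1.60, limma voom adjusted p = 0.176), and the DMSO values rested on 15, 10 and 5 reads. bta-miR-2320-3p had 16.2, 24.0 and 11.8 normalized reads in RSV and 7.59, 12.1 and 9.60 in DMSO, with overlap and a log2FC of 0.81 (95% interval −0.08 to 1.71). bta-miR-2431-5p had 59.0, 67.2 and 56.7 normalized reads in RSV and 54.2, 48.6 and 43.9 in DMSO, without overlap. Its log2FC of 0.31 (limma voom adjusted p = 0.207) did not pass. bta-miR-2419-5p overlapped between the groups, with 50.6, 41.0 and 55.6 normalized reads in RSV and 43.4, 35.2 and 38.4 in DMSO.

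**Figure D4:**
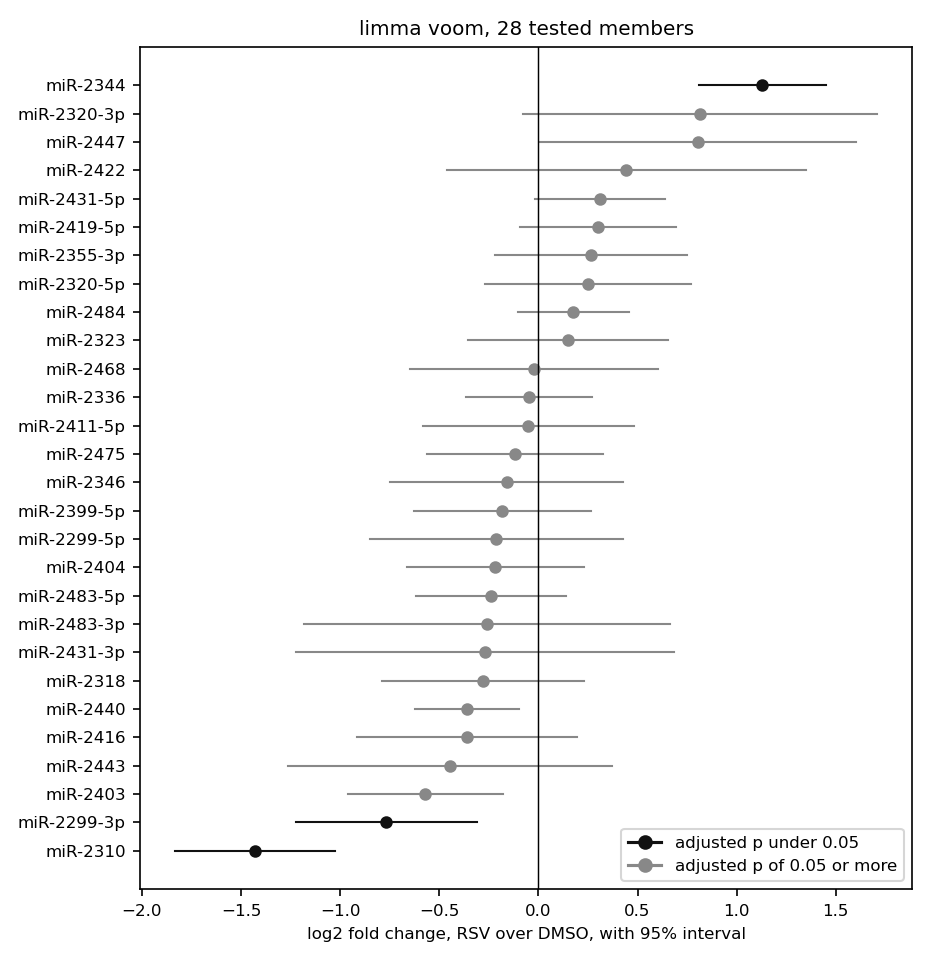
Log2 fold change of RSV over DMSO from limma voom with its 95% interval for the 28 tested members, black where the adjusted p was under 0.05. The intervals of 6 members exclude 0, and 27.8% of all 209 tested miRNAs had an unadjusted limma voom p under 0.05. The 6 are the called bta-miR-2344, bta-miR-2310 and bta-miR-2299-3p, and bta-miR-2403, bta-miR-2440 and bta-miR-2447, which did not pass after adjustment. Of the 28 intervals, 19 lie between −1 and 1.

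Precision varied among the tested members. The median standard error of the log2FC was 0.22 over the 28, against 0.18 over all tested miRNAs. The 95% intervals of 19 of the 28 lay between −1 and 1 on the log2 scale, so a change of 2-fold was outside them. The RSV libraries of bta-miR-2443 were uneven, with 23.4, 17.0 and 7.48 normalized reads in RSV and 23.9, 18.2 and 26.1 in DMSO. Its log2FC of −0.45 (95% interval −1.26 to 0.37) spanned 0. bta-miR-2422, within the gene of the muscle actin crosslinker FLNC, had 13.6, 21.6 and 15.0 normalized reads in RSV and 6.51, 17.0 and 16.5 in DMSO.

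Arm names are given for 53 members, 25 of them 5p and 28 of them 3p, and 88 carry no arm. Both arms were listed for 22 precursors, and in 8 of these at least 1 arm reached a mean of 10 normalized reads. The 5p arm had more reads in 7 of the 8. It held 96.7% of the reads of both arms for bta-mir-2419, 95.4% for bta-mir-2399, 81.6% for bta-mir-2431, 78.3% for bta-mir-2411, 75.6% for bta-mir-2483, 64.1% for bta-mir-2320 and 59.5% for bta-mir-2299. bta-mir-2355 was the exception, with 27.8% on the 5p arm. The order of the arms was the same in all 6 libraries for bta-mir-2419, bta-mir-2399, bta-mir-2431, bta-mir-2411, bta-mir-2483 and bta-mir-2355.

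The 3p arm of bta-mir-2355 had 22.7, 25.5 and 26.7 normalized reads in RSV and 18.4, 18.2 and 26.1 in DMSO, and the groups overlapped. The 5p share of bta-mir-2320 was 58.3%, 50% and 74.4% in RSV and 74.1%, 63.0% and 69.6% in DMSO. Its 5p arm had 22.7, 24.0 and 34.2 normalized reads in RSV and 21.7, 20.6 and 22.0 in DMSO, without overlap but with a log2FC of 0.25 (95% interval −0.27 to 0.77). For bta-mir-2299 the 5p share was 72.8%, 53.1% and 65.0% in RSV against 61.3%, 45.1% and 58.5% in DMSO. The shares of the 2 groups overlapped in all 8 precursors. bta-miR-2399-5p (29.8, 34.8 and 38.5 normalized reads in RSV against 46.6, 30.4 and 38.4 in DMSO) and bta-miR-2411-5p (18.8, 20.9 and 18.2 against 19.5, 25.5 and 15.1) overlapped as well. So did bta-miR-2483-5p, with 43.5, 37.1 and 33.1 normalized reads in RSV against 51.0, 41.3 and 42.5 in DMSO. The minor arms bta-miR-2431-3p and bta-miR-2483-3p had group means of 12.4 and 12.3 normalized reads in RSV and 12.4 and 14.4 in DMSO. The minor arms bta-miR-2399-3p, bta-miR-2411-3p and bta-miR-2419-3p had a mean under 10, with 1.94, 5.51 and 1.09 normalized reads in RSV and 1.59, 5.37 and 1.94 in DMSO, and so had bta-miR-2355-5p, with 8.22 and 9.48.

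**Figure D5:**
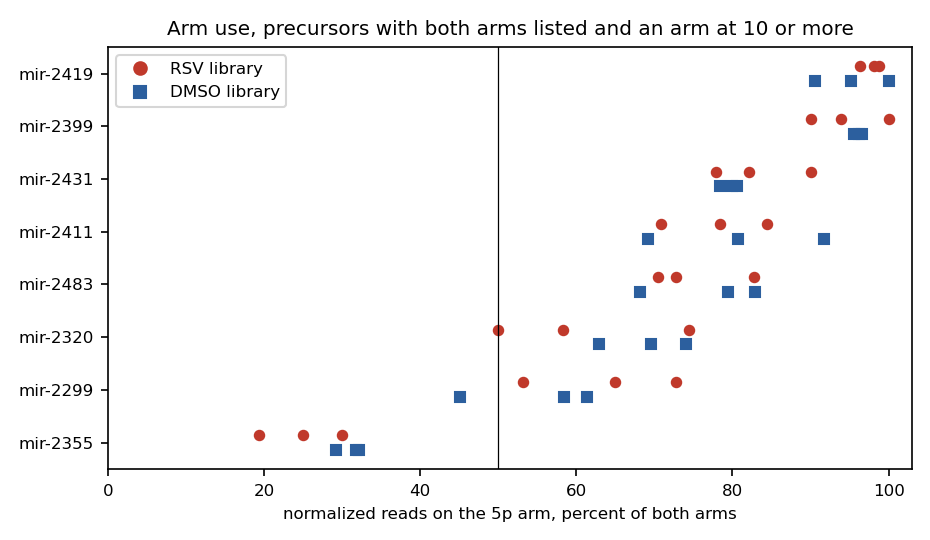
Share of normalized reads on the 5p arm, in percent of both arms, for the 8 precursors with both arms listed and at least 1 arm at a mean of 10 or more, per RSV library (red circles) and DMSO library (blue squares). The 5p arm prevails in 7 of the 8, and bta-mir-2355 lies below 50% in every library.

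The 141 members come from 119 precursor names, and 117 of these matched a RefSeq miRNA gene of ARS-UCD2.0, where 206 genes carry numbers in this range. Of the 117, 99 (84.6%) overlap a protein-coding gene, against 66.0% of all 1032 RefSeq miRNA genes. The table gives no strand, so these overlaps may be on either strand. Overlaps among the members with a mean of at least 10 include GTF2IRD1, a transcription factor gene, with bta-mir-2387, MACF1, a linker of microtubules and actin, with bta-mir-2416, and SLC16A9, a carrier of the monocarboxylate transporter family, with bta-mir-2403. Like bta-mir-2310, bta-mir-2478, bta-mir-2336 and bta-mir-2419 overlap no listed gene.

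Members with a mean of at least 10 lay beside other well known miRNA genes in 2 cases. bta-mir-2475 lies within 10 kb of MIR23B, MIR27B and MIR24-1, and bta-miR-2475 had 26.6, 20.9 and 24.6 normalized reads in RSV and 27.1, 27.9 and 22.0 in DMSO, with overlapping groups. bta-mir-2443 lies within 10 kb of MIRLET7A-3 and MIRLET7B, and the 9 let-7 entries of the table had a median of 13944 normalized reads.

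The rarest members were not tested. Of the 141, 20 were listed at 0 in DMSO and 17 at 0 in RSV, and 28 had reads in a single library. A count of 0 over a group allows up to 3 reads, that is, a group mean of 1.21 normalized reads in DMSO and 0.796 in RSV. No member listed at 0 in RSV had more than 3 reads over the DMSO group. Of those listed at 0 in DMSO, 4 had more than 3 reads over the RSV group, and they are named here after their values were seen. These are raw reads, and all RSV libraries were deeper than the DMSO libraries, so depth and treatment cannot be told apart here. The counts of zeros were not set against those over all listed miRNAs. bta-miR-2376 had 7, 1 and 2 reads in the RSV libraries, most of them in the deepest one. bta-miR-2453 had 4, 2 and 1 reads, bta-miR-2314 had 0, 3 and 2 reads, and bta-miR-2307 had 1, 2 and 1 reads. The RSV mean of bta-miR-2307, 1.09 normalized reads, lies below the 1.21 that a count of 0 allows in DMSO. No fold is given for these 4, since they were picked for their reads in RSV and their 0 in DMSO.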

How the data were processed

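Small RNA of 3 RSV and 3 DMSO cultures was sequenced. The authors mapped the tags to bosTau8 with Bowtie 0.12.9, named miRNAs by miRBase with miRDeep2 and compared the groups with DESeq. The deposited table holds group means of normalized read counts, and the authors' fold changes and P-values in it were not used. Each mean was read as a sum of whole reads over 3 size factors, which were fitted to the 10 digits deposited. A group mean of up to 1000 was searched, and only miRNAs with a single combination were tested. This step and the test were tested on simulated data.

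The test was limma voom (limma 3.58.1 in R 4.3.3). Library sizes came from the size factors, the mean over both groups had to reach 10, and P-values were adjusted by Benjamini-Hochberg over 209 miRNAs. Alternatives were other normalizations, minimum means and pseudocounts, limma trend, and each library left out. The nearest-combination alternative was chosen after seeing the data. With 3 libraries per group an exact permutation test cannot go below 0.10. Identical reads of 2 names were kept as 2 features. Other steps used Python 3.11.15 and numba 0.67.0. Library totals are unknown, since 182 miRNAs have no single combination. The recovered reads of the other 583 sum to 13419 to 28392 per library.

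The members and lists were chosen with earlier results of these data known. Named were bta-miR-2344, bta-miR-2310, all calls, the 10 most abundant members, the 5 highest and 5 lowest ratios of group means among members with a mean of at least 10, pairs of arms with an arm at that mean, and names with identical values at that mean. Others were named after their values were seen. The mRNA part was not used here.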

Additional observations from a re-analysis of the deposited data

How the results depend on the processing

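No paired analysis was possible because the recovered libraries carry no replicate number. bta-miR-2344 and bta-miR-2310 passed the test under every alternative run, with adjusted p between 0.000169 and 0.0273 and log2FC from 1.03 to 1.20 and from −1.54 to −1.31. The number of members called was 2 to 4 under the other settings, and 2 to 3 without single libraries. The number of all miRNAs called was 20, and 4 to 23 without single libraries (5, 7 and 4 without the DMSO libraries with size factors of 0.922, 0.823 and 0.729, and 13 without the deepest RSV library), and an arm then held 2 libraries. Of all calls, 11 were higher and 9 lower, against 9 and 12 with quantile normalization and 11 and 14 with no minimum mean. bta-miR-2299-3p missed the threshold with a minimum mean of 5 (adjusted p = 0.0548), with no minimum (0.0943) and with limma trend (0.0655), and its log2FC was −0.90 to −0.57 without single libraries. Without single libraries the log2FC of bta-miR-2299-5p ranged from −0.49 to 0.028, of bta-miR-2336 from −0.18 to 0.074, of bta-miR-2411-5p from −0.19 to 0.13 (0.067 with quantile normalization), of bta-miR-2431-3p from −0.53 to 0.25 and of bta-miR-2483-3p from −0.56 to 0.24. These changed sign and none was called. The median log2 ratio of the members was 0.018 over all 141, so its sign turned when the rare members were included. Members past 1.5-fold numbered 8 with a minimum mean of 5 (6 higher and 2 lower in RSV), 3 with 20 (1 and 2) and 27 with none (16 and 11). Without the most abundant member the share of all miRNA reads was 0.0305% in RSV and 0.0267% in DMSO. The cause of these changes was not tested. Of 274 refits of 20 named members, 259 kept direction and side of the threshold. Most of the 20 were not called in the main fit, so this count says little about the calls. All 7 refits that lost a call were of bta-miR-2299-3p.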
